A study of Caenorhabditis elegans with 2 samples.

Results

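F23A7.4, F23A7.8, got-1.2, sqst-1 and T09F5.12 were the 5 genes examined, out of 45510 genes listed. They were selected on their antisense read counts in 1 of the 2 libraries, the RNAi library, where they ranked 3, 8, 6, 7 and 9 among the 44206 genes outside structural RNA (the classes miRNA, rRNA, tRNA, snRNA and snoRNA). The other genes down to rank 9 are unc-119, nrde-3, the transposon gene T27C5.9 and the cuticle collagen gene sqt-3, which fall outside the 5. Both libraries held small RNAs that eluted with the nuclear Argonaute FLAG::GFP::NRDE-3 from embryo lysates of Caenorhabditis elegans kept at 20 °C. The RNAi library came from eri-1(mg366);dpy-13(e458) animals that carried 3xflag::gfp::nrde-3 and were grown on dpy-13 RNAi plates. N2 animals with 3xflag::gfp::nrde-3, grown on OP50 bacteria, gave the wild-type library. Each group was 1 library, so genotype, food and library preparation cannot be told apart and no p-value can be given. Every difference is one between these 2 libraries, in bulk lysates where fewer cells with a small RNA and less of it per cell cannot be told apart. The study used the RNAi library as a control beside its look at endogenous NRDE-3 cargo. No library made without the tagged protein or before the precipitation was analysed here, so the values do not show how much RNA was bound.

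NRDE-3 carries 22G-RNAs, short antisense RNAs made by RNA-dependent RNA polymerases on a target transcript, into the nuclei of somatic cells, where they direct silencing of the gene. In wild-type animals much of its cargo derives from targets of the ERGO-1 26G pathway. That pathway needs the exonuclease ERI-1, and animals that lack ERI-1 are known for a stronger response to double-stranded RNA. Reads antisense to a transcript are therefore the reads that can be small RNAs against it, while sense reads can also be pieces of the transcript itself.

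The RNAi library held 5537671 counted reads and the wild-type library 7693320. Antisense reads outside structural RNA numbered 425987 in the RNAi library and 1330907 in the wild-type library, or 7.69% and 17.3% of the counted reads of each. Levels are given as RPM, reads per 1000000 counted reads of both strands. Intervals are exact 95% intervals and cover counting error only, since amplified reads without molecular identifiers are not independent molecules. Genes with 10 reads or more over both libraries are called measured. The size rule asks for 10 RPM or more in the higher library, a ratio of 4-fold or more and an interval wholly beyond 2-fold.

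On all 5 genes antisense reads were more frequent in the RNAi library than in the wild-type library, where each gene still had 100 reads or more. Together they had 14308 antisense reads in the RNAi library and 980 in the wild-type library. They held 3.36% of antisense reads outside structural RNA in the RNAi library (Wilson 95% interval 3.31 to 3.41) and 0.0736% in the wild-type library (0.0692 to 0.0784). In the wild-type library they ranked between 99 and 162. By the size rule 5 of 5 genes were higher in the RNAi library, beside 18.6% of the 5751 measured genes, and 0 of 5 were lower, beside 2.63%. The genes were chosen for high counts in the RNAi library, so these counts describe the choice. At the lower edge of the choice were F23A7.8 with 2220 reads and T09F5.12 with 2133, and the next gene down was the long intergenic RNA gene linc-29 with 2082. Below it came the transposon gene Y60A3A.27 with 1991 reads, hmg-11 with 1868, W09C5.12 with 1702 and the linker histone gene his-24 with 1653.

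**Figure D1:**
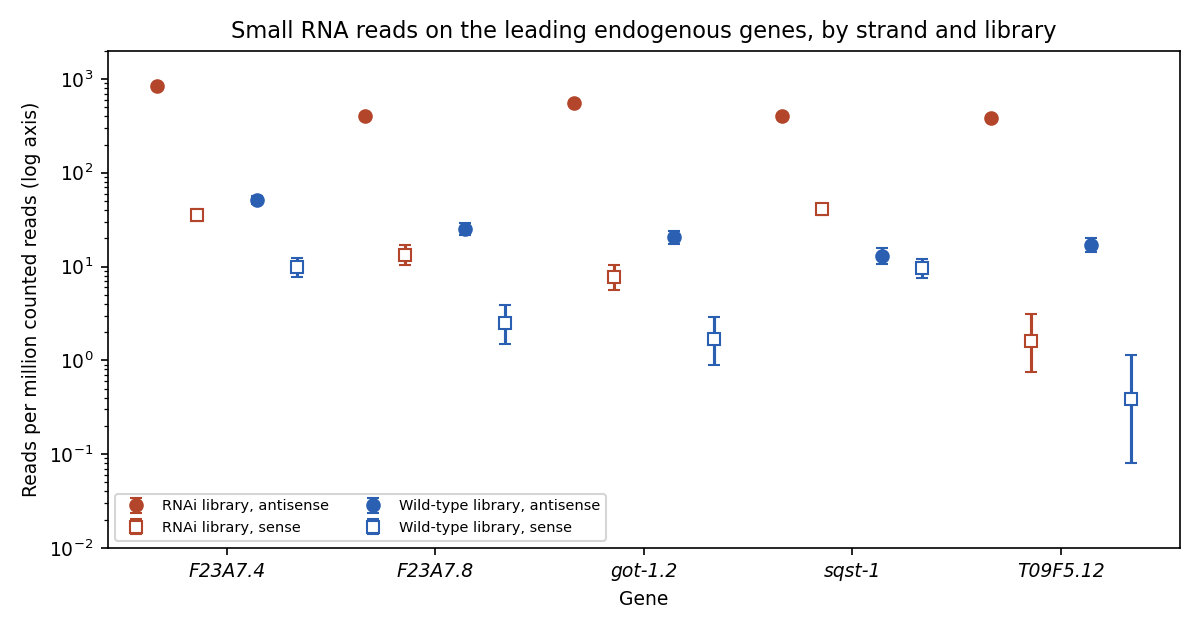
RPM (log axis) on each of the 5 genes, antisense as filled circles and sense as open squares, with the RNAi library in red and the wild-type library in blue; bars are exact Poisson 95% intervals of 1 library each. Antisense levels lie between 385 and 840 RPM in the RNAi library and between 13 and 51.5 RPM in the wild-type library.

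F23A7.4 and F23A7.8 are neighbours on chromosome X, and their antisense reads kept nearly the same proportion in both libraries. F23A7.4 lies at 16212606 to 16212812 and F23A7.8 at 16213373 to 16213576 of WBcel235, on the same strand with 560 bases between them. Each is annotated as protein-coding with a single exon, of 207 and 204 bases, and with no untranslated region. The sources used here give no function for either. F23A7.4 had 4652 antisense reads, or 840 RPM (816 to 865), in the RNAi library and 396 reads, or 51.5 RPM (46.5 to 56.8), in the wild-type library, a ratio of 16.3 (14.7 to 18.1). F23A7.8 had 2220 antisense reads, or 401 RPM (384 to 418), in the RNAi library and 193 reads, or 25.1 RPM (21.7 to 28.9), in the wild-type library, a ratio of 16.0 (13.8 to 18.6). Neither gene's interval in the RNAi library comes near its interval in the wild-type library, and the intervals of the 2 ratios overlap almost wholly. Reads on F23A7.4 outnumbered those on F23A7.8 by 2.1-fold (1.99 to 2.21) in the RNAi library and by 2.05-fold (1.72 to 2.45) in the wild-type library. The files list 2 transcripts of F23A7.4, where the current annotation has 1. F23A7.4.1 held 43.9% of the gene's antisense reads in the RNAi library and 42.9% in the wild-type library. Whether the sequences of both genes overlap was not tested, and reads that fit both would be counted on 1 of them.

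got-1.2 encodes an aspartate aminotransferase, an enzyme that moves an amino group between aspartate and glutamate. It lies on chromosome X at 16791347 to 16793126, on the reverse strand, with 4 exons of 1419 bases in all. It had 3075 antisense reads, or 555 RPM (536 to 575), in the RNAi library and 159 reads, or 20.7 RPM (17.6 to 24.1), in the wild-type library. The ratio was 26.9 (22.9 to 31.7), with an interval above that of either F23A7 gene. Its 2 listed transcripts, T01C8.5.1 and T01C8.5.2, held 1492 and 1583 antisense reads in the RNAi library and 86 and 73 in the wild-type library. The noncoding RNA T01C8.10 lies on the other strand and shares 100 exon bases with got-1.2, so its sense reads have the strand of got-1.2 antisense reads. It had 46 sense reads in the RNAi library and 1 in the wild-type library, and adding them would give got-1.2 a total of 3121 and 160 reads.

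Other genes of the same metabolism had few antisense reads. The adjacent paralogue got-1.1, listed as protein-coding in the files and as a pseudogene in the annotation, had 2 antisense reads in the RNAi library and 0 in the wild-type library. got-2.1 had 14 and 0 reads, a ratio of 6.48 when 3 reads are taken for the 0, and the exact lower bound was 4.61. got-2.2 had 6 and 0. In a list of 21 genes of aminotransferases and of glutamate, glutamine and malate metabolism, 9 were measured. Besides got-1.2, which was chosen for its count, 0 of 8 met the size rule, beside 18.6% of all measured genes. None of the 8 reached the 10 RPM that the rule asks for, so this count says nothing of their ratios. These 8 had a median log2 ratio of 3.47, beside 3.58 for all measured genes. Their highest count was 45 antisense reads in the RNAi library, or 8.13 RPM, on the aldehyde dehydrogenase gene alh-6. It had 2 antisense reads in the wild-type library.

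sqst-1 encodes the worm counterpart of mammalian p62, a receptor that brings ubiquitin-marked cargo to autophagosomes. It lies on chromosome IV at 12034282 to 12036891, with 2253 exon bases in 3 blocks. It had 2228 antisense reads, or 402 RPM (386 to 419), in the RNAi library and 100 reads, or 13 RPM (10.6 to 15.8), in the wild-type library, a ratio of 31.0 (25.3 to 38.2). That ratio had the highest value of the 5, and its interval overlaps those of got-1.2 and T09F5.12 but not those of the F23A7 genes. The files list 4 transcripts of sqst-1. They shared the antisense reads almost evenly in the RNAi library, from 23.6% to 26.3% each, and from 20% to 32% each in the wild-type library. Bowtie2 places a read that fits several transcripts equally on 1 of them, so the split among transcripts is not a measure of isoform use.

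On a list of autophagy genes sqst-1 had by far the most antisense reads in the RNAi library, the count on which it was chosen. Of 35 names on that list, 34 were matched and 22 were measured. The RNAi library was higher on 8 of the 22 by the size rule and lower on 0, beside 18.6% and 2.63% of all measured genes. Without sqst-1 the count was 7 of 21, with a median log2 ratio of 3.64, beside 3.58 for all measured genes. epg-2, an adaptor in the autophagy of P granule proteins, had 301 antisense reads in the RNAi library and 12 in the wild-type library, a ratio of 34.8 (19.7 to 68.2). For hlh-30, the counterpart of the mammalian regulator TFEB, the counts were 183 and 3, with a ratio of 84.7 (28.5 to 415). vps-15, a subunit of the phosphatidylinositol 3-kinase complex, had 99 in the RNAi library and 4 in the wild-type library, for a ratio of 34.4 (13 to 129). The other genes that met the rule were atg-2, atg-18, epg-7 and epg-6, with 58 to 83 reads in the RNAi library. The related gene sqst-3 had 1 antisense read in the RNAi library and 2 in the wild-type library, and sqst-2 and sqst-4 had none in either.

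T09F5.12 lies on chromosome V at 15164743 to 15166318, on the reverse strand, with 3 exons of 1485 bases. The files class it as protein-coding and the current annotation as a long intergenic RNA. It had 2133 antisense reads, or 385 RPM (369 to 402), in the RNAi library and 132 reads, or 17.2 RPM (14.4 to 20.3), in the wild-type library. The ratio was 22.4 (18.8 to 27). T09F5.12a held 86.1% of the gene's antisense reads in the RNAi library and 89.4% in the wild-type library, and T09F5.12b held the rest. With 2220, 2228 and 2133 reads, F23A7.8, sqst-1 and T09F5.12 were within counting error of each other in read count in the RNAi library.

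Per length the order of the genes was different. The antisense level per kilobase of annotated exon in the RNAi library was 4058 RPM for F23A7.4, 1965 for F23A7.8, 391 for got-1.2, 259 for T09F5.12 and 179 for sqst-1. In the wild-type library it was 249 RPM for F23A7.4, 123 for F23A7.8, 14.6 for got-1.2, 11.6 for T09F5.12 and 5.77 for sqst-1. The order was thus the same in both libraries. In the RNAi library every neighbouring pair in that order differed beyond counting error. In the wild-type library got-1.2 and T09F5.12 did not, at a ratio of 1.26 (0.994 to 1.60). By level per kilobase in the RNAi library F23A7.4 and F23A7.8 ranked 2 and 3, behind unc-119, while got-1.2 ranked 21, T09F5.12 36 and sqst-1 57. The annotated exons of both F23A7 genes hold no untranslated region, and the values per kilobase would be lower if the transcripts the authors counted were longer.

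The excess in the RNAi library was shared by most genes. The median ratio of the 5751 measured genes was 11.9-fold, or 3.58 on the log2 scale, and 95.1% of them had a ratio above 1. Relative to that median the 5 genes were higher by 0.42 for F23A7.8, 0.45 for F23A7.4, 0.90 for T09F5.12, 1.16 for got-1.2 and 1.37 for sqst-1 on the log2 scale. The share of measured genes with a smaller log2 ratio was 63.9% for F23A7.8 and 83.0% for sqst-1, with the other genes between them. TMM scaling moved the median of all genes by −3.20 on the log2 scale, and the ratios then ranged from 1.73 for F23A7.8 to 3.36 for sqst-1, so that 0 of 5 met the size rule. The direction was higher in the RNAi library for all 5 genes under each of the 5 scalings tried, as the plot of ratios by scaling shows. A scaling shifts all ratios alike, so the place of the 5 genes relative to the median is the same in each. The genes were chosen for high counts in the RNAi library, which favours ratios above 1 and above the median.

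**Figure D2:**
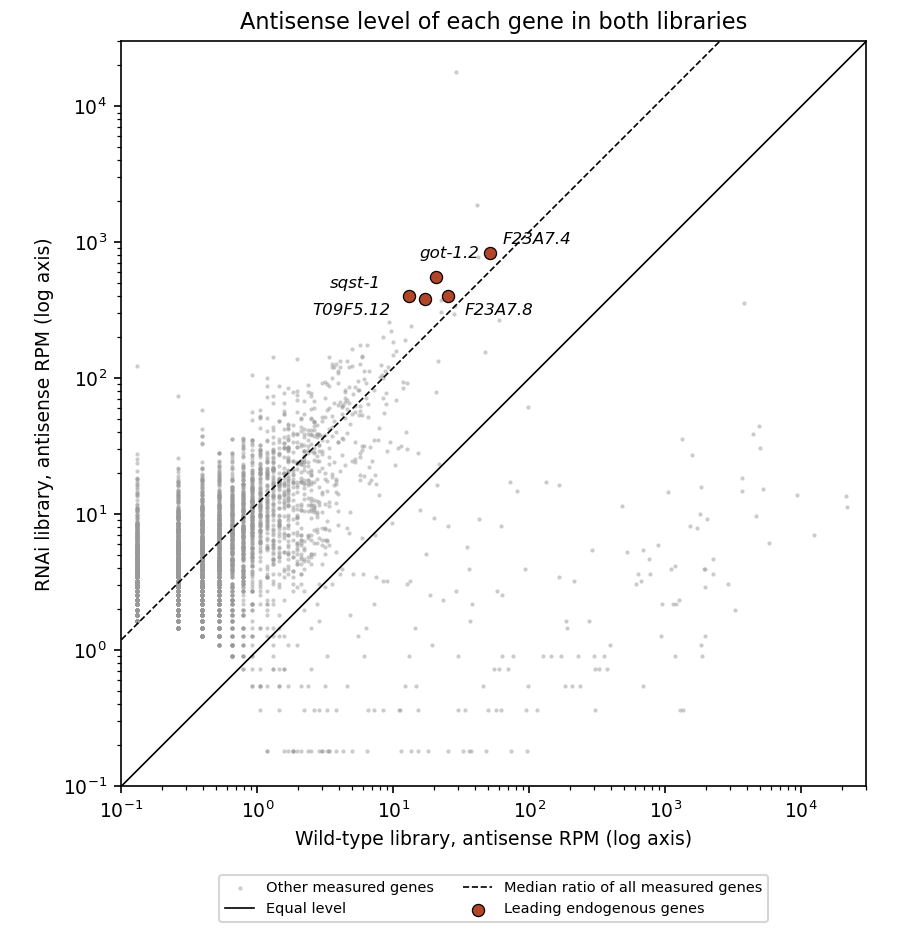
Antisense RPM in the RNAi library (vertical, log axis) against the wild-type library (horizontal, log axis) for the 4789 measured genes outside structural RNA with reads in both libraries, with the 5 genes in red. The solid line marks equal levels and the dashed line the median ratio of 11.9; the 5 genes lie just above the dashed line, and a separate set of genes with high wild-type levels lies below the solid line.

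**Figure D3:**
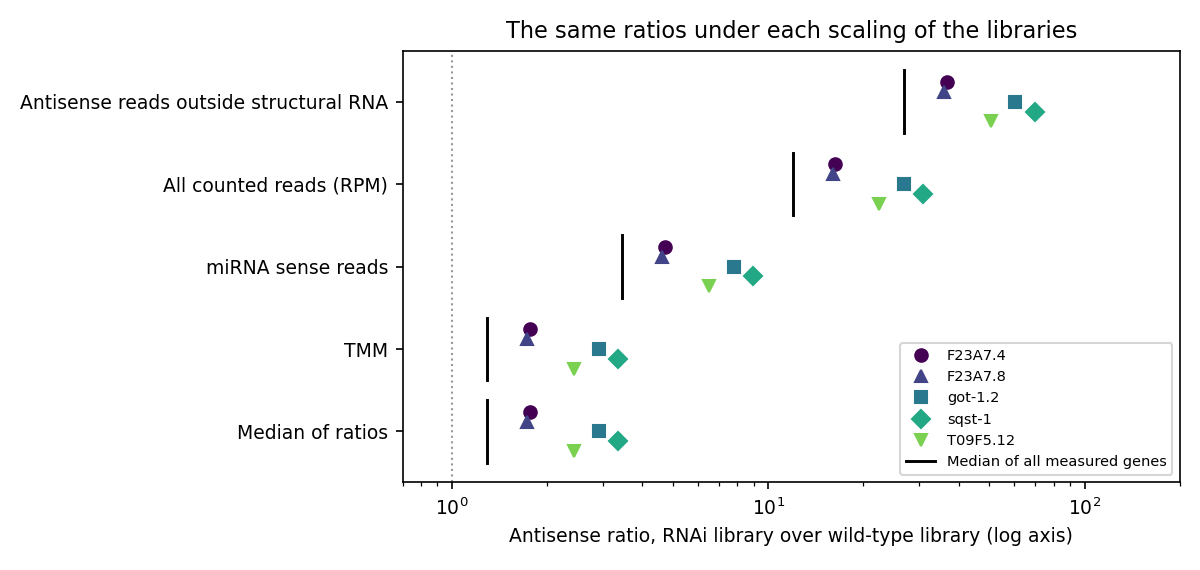
Antisense ratio (log axis), RNAi library divided by wild-type library, for each gene under 5 scalings; a black bar marks the median of all measured genes and the dotted line a ratio of 1. The ratios shift together, from 35.9 to 69.6 when scaled to antisense reads outside structural RNA down to 1.73 to 3.36 with TMM. The black bar shifts with them by construction, so their place to its right is the same in each row.

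At the level these genes had in the wild-type library, most other genes were lower in the RNAi library. Between 100 and 396 antisense reads in the wild-type library, the range of the 5 genes, there were 60 other genes outside structural RNA. Of these, 42 (70%) were lower in the RNAi library by the size rule, 9 (15%) were higher and 9 were neither. Of all measured genes 2.63% were lower and 18.6% higher. The 5 genes were chosen for high counts in the RNAi library, so their contrast with these 60 describes the choice. The 9 other higher genes were unc-119, nrde-3, T27C5.9, linc-29, hmg-11, W09C5.12, his-24, sdz-26 and C36C9.10. The gene that led the wild-type library, the noncoding RNA T05E11.9, had 63 antisense reads in the RNAi library and 167296 in the wild-type library. dpy-13, the gene the bacteria were made to target, had 115 antisense reads in the RNAi library and 1 in the wild-type library. It ranked 448 in the RNAi library. That it had fewer reads there than any of the 5 genes follows from their choice by count.

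Sense reads were not used to choose the genes. They were few, and also more frequent in the RNAi library. F23A7.4 had 198 sense reads in the RNAi library and 76 in the wild-type library, a ratio of 3.62 (2.76 to 4.78). sqst-1 had 227 and 74, a ratio of 4.26 (3.26 to 5.62), and F23A7.8 had 74 and 19, a ratio of 5.41 (3.23 to 9.49). got-1.2 had 43 sense reads in the RNAi library and 13 in the wild-type library, a ratio of 4.60 (2.43 to 9.31). T09F5.12 had 9 and 3, a ratio of 4.17 (1.04 to 23.9). By the size rule 2 of 5, sqst-1 and F23A7.8, were higher, beside 7.54% of the 7591 genes measured by sense reads, whose median ratio was 2.89-fold. got-1.2, at 7.77 RPM in the RNAi library, and T09F5.12, at 1.63 RPM, were below the 10 RPM the rule asks for. F23A7.4 was below 4-fold. The 5 sense ratios lay above the median of 2.89, from 3.62 to 5.41, but the intervals of F23A7.4, got-1.2 and T09F5.12 include it. All 5 were smaller than the antisense ratio of the same gene, though for T09F5.12 the 2 intervals overlap. The antisense ratios hold the counts on which the genes were chosen.

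The strand balance differed between the libraries. In the RNAi library antisense reads made up 99.6% of reads on T09F5.12 (Wilson 95% interval 99.2 to 99.8), 98.6% on got-1.2 (98.1 to 99.0), 96.8% on F23A7.8 (96.0 to 97.4), 95.9% on F23A7.4 (95.3 to 96.4) and 90.8% on sqst-1 (89.5 to 91.8). In the wild-type library the shares were 97.8% on T09F5.12 (93.7 to 99.2), 92.4% on got-1.2 (87.5 to 95.5), 91.0% on F23A7.8 (86.4 to 94.2), 83.9% on F23A7.4 (80.3 to 86.9) and 57.5% on sqst-1 (50.0 to 64.6). The intervals of the 2 libraries did not overlap for sqst-1, F23A7.4, F23A7.8 and got-1.2, and overlapped at their edges for T09F5.12. How often such intervals were apart for other genes was not tested, so the difference is not shown to be particular to these genes. The genes were chosen for their antisense reads in the RNAi library, which enter this share, so a high share there is part of the choice. Over all genes outside structural RNA pooled, the share went the other way, 48.3% in the RNAi library and 83.6% in the wild-type library. Genes with many reads weigh most in that pool. The median ratio was 11.9 over genes measured by antisense reads and 2.89 over genes measured by sense reads. These are different sets of genes, and the share of a typical gene was not tested.

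Genes around the 5 had few antisense reads. Within 10000 bases of the 5 genes lay 32 other genes, which together had 136 antisense reads in the RNAi library and 34 in the wild-type library, and 17 of them had none in either. Most genes had none. Of 44206 genes outside structural RNA, 11867 had an antisense read in the RNAi library and 7248 in the wild-type library. Few reads on the neighbours are thus not shown to be particular to these places. All 8 neighbours of T09F5.12 were at 0 in both libraries. Around got-1.2 the highest of 7 neighbours was aak-2, the gene of an AMP-activated kinase subunit, with 9 antisense reads in the RNAi library and 0 in the wild-type library. Around sqst-1 the highest of 6 was T12G3.2, with 26 and 0. Upstream of F23A7.4, the noncoding RNA R11.7 had 78 and 30 antisense reads and lies opposite a transfer RNA gene. The transposon genes F23A7.7, with 114 and 4 antisense reads, and T09F5.7, with 24 and 1, carry the same clone names, but their positions were not used here.

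**Figure D4:**
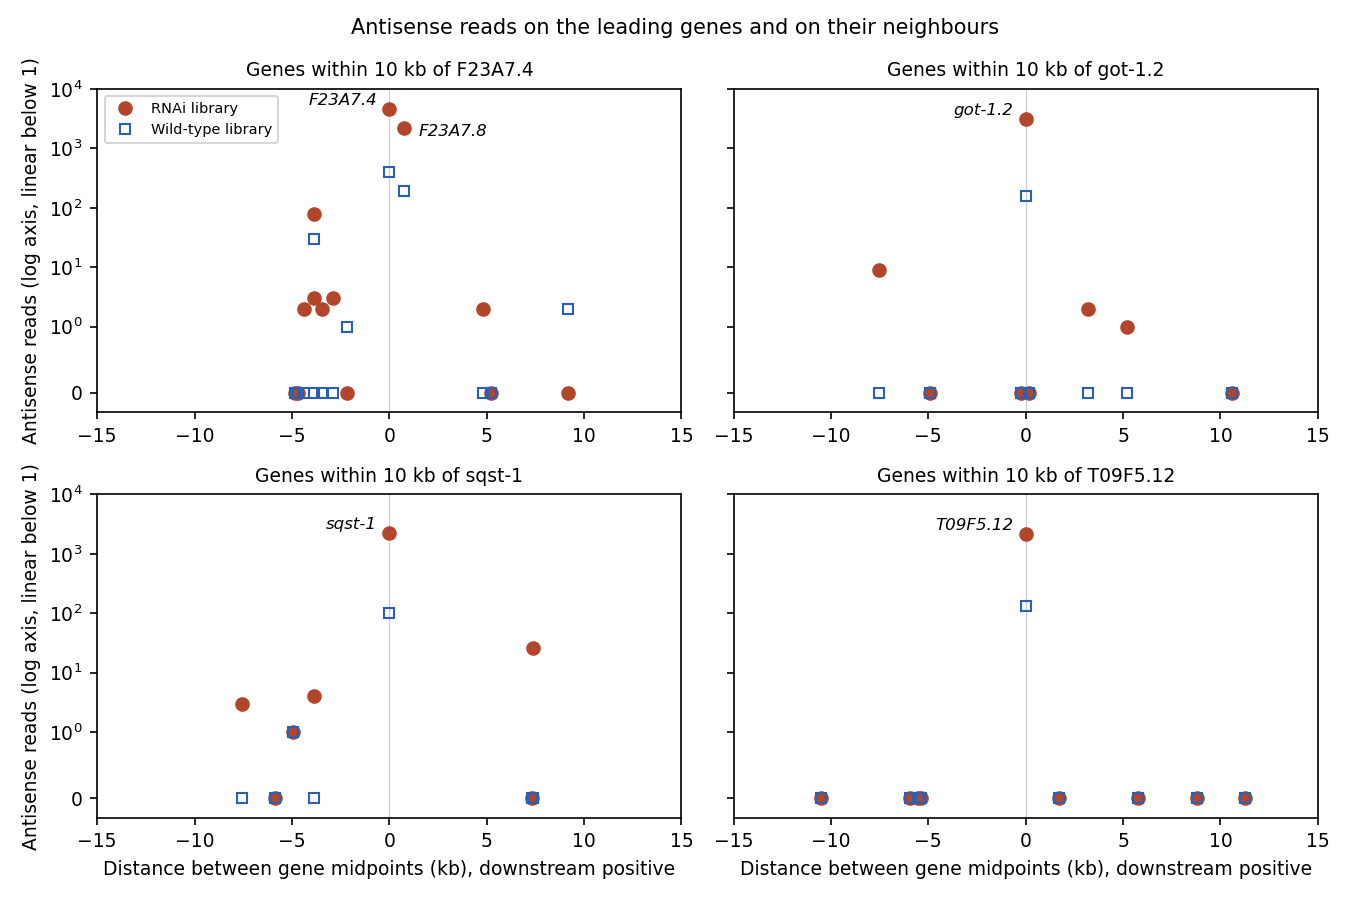
Antisense reads (log axis, linear below 1) on F23A7.4, got-1.2, sqst-1 and T09F5.12 and on the genes within 10 kb of each, against the distance between gene midpoints in kb, positive downstream; the RNAi library is in red and the wild-type library in open blue squares. F23A7.8 is the only neighbour near its panel's central gene in level; the next highest of all 4 panels has 78 reads in the RNAi library.

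The genes with the most similar values were found by the distance over 4 values, the log2(RPM + 1) of antisense and sense reads in both libraries, among 5625 measured genes outside structural RNA. hmg-11 was nearest to F23A7.4, F23A7.8 and got-1.2, at distances of 2.39, 0.73 and 1.43. It had 1868 antisense reads in the RNAi library and 220 in the wild-type library. The next nearest were his-24 and vet-6 for F23A7.4, sdz-26 and vet-6 for F23A7.8, and sdz-26 and the F-box gene fbxb-97 for got-1.2. For sqst-1 they were jmjd-3.1, a histone demethylase gene, at 1.78, then vet-6 and his-24. For T09F5.12 they were W09C5.12 at 0.82, B0284.3 at 1.04 and linc-29 at 1.12. Among the 5 genes the closest pair was F23A7.8 and got-1.2, at 0.97, and the most distant was F23A7.4 and T09F5.12, at 5.19, which differ mainly in sense reads.

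Of the 5 genes 3 lie on chromosome X, and 2 of these are the F23A7 neighbours, 560 bases apart. Chromosome X holds 11.8% of the 5415 measured genes with a position outside structural RNA and 15.5% of the 1006 among them that were higher by the size rule. Among the 97 genes with a position in the top 100 of the RNAi library, 23.7% lie on it. The tissue label could be checked only through small RNAs. On 18 germline and oocyte genes sense reads summed to 166 RPM in the RNAi library and 152 RPM in the wild-type library (921 and 1169 reads). On 18 muscle and epidermis genes the sums were 1236 RPM in the RNAi library and 193 RPM in the wild-type library, and 3641 of the 6845 reads in the RNAi library were on the epidermal factor gene elt-1, which had 25 of 1487 in the wild-type library. On the 6 yolk protein genes vit-1 to vit-6, which the adult intestine expresses, sense reads summed to 1162 RPM in the RNAi library and 514 RPM in the wild-type library (6432 and 3957 reads), beside 4 and 1 antisense reads. By antisense reads 0 of 14 intestinal genes were measured, beside 5751 of all 45510 genes listed, so most genes were not measured either. By antisense reads 1 of 7 measured genes of the muscle and epidermis list met the size rule, lin-26 with 66 and 8 reads, and 2 of 16 of the germline list did, rme-2 with 76 and 2 and cbd-1 with 69 and 5. Of all measured genes 18.6% met it as higher. The part of adult tissue in the values of the 5 genes was not tested.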

How the data were processed

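Reads were aligned by the authors with Bowtie2 at default parameters to the WS243 transcriptome, per the series' design text. The sources used here do not give its version. Per the labels' protocols, RNAs of 20 to 30 nt were cloned after phosphatase and kinase treatment. The deposited files hold raw counts of each transcript by strand, per the file headers, which have 5 names above lines of 6 fields. Lines without a second count, 3 in the RNAi library and 2 in the wild-type library, were left out. Transcript counts were added up per gene. Names and positions came from Ensembl 115 (WBcel235), with RefSeq's gene table (WBcel235) for names only, matched by gene identifier for 44852 of 45510 genes, so positions are those of the annotation and not of reads. Ratios are those of RPM with the Clopper-Pearson interval of the split of both counts, and log2 ratios had 0.5 added to each count. A count of 0 was taken as compatible with up to 3 reads, or 0.542 RPM in the RNAi library and 0.390 in the wild-type library.

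The members and gene lists were chosen with earlier results of these data known. Named were the 5 genes, genes of their clones or within 10000 bases with 10 or more antisense reads, genes ranked between them or up to 5 ranks below, the 3 genes of most similar values and up to 4 genes per list that met the size rule; other list genes, the families' paralogues, aak-2, C36C9.10 and T05E11.9 were named after their values were seen. Alternatives were TMM (edgeR 4.0.16), median-of-ratios factors (DESeq2 1.42.0), scaling to miRNA sense reads and to antisense reads outside structural RNA, other minimum counts and added counts, and the strongest transcript alone. Ratios, intervals and the size rule were tested on simulated data (Python 3.11.15, scipy 1.17.1). No transcript sequences were used, so a planned count of sequence shared between genes was not made.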

Additional observations from a re-analysis of the deposited data

How the results depend on the processing

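No paired analysis was possible because each group had 1 library, and no replicate could be left out. Every alternative kept the 5 antisense ratios above 1, which the choice of the genes by their RNAi library counts favours. In the order F23A7.4, F23A7.8, got-1.2, sqst-1 and T09F5.12, the ratios were 1.77, 1.73, 2.92, 3.36 and 2.44 under TMM and 1.77, 1.73, 2.91, 3.36 and 2.43 with median-of-ratios factors. They were 4.73, 4.63, 7.79, 8.98 and 6.51 when scaled to miRNA sense reads, and 36.7, 35.9, 60.4, 69.6 and 50.5 when scaled to antisense reads outside structural RNA. The strongest transcript alone, or 5 added to each count, moved no ratio beyond its interval. Genes higher by the size rule numbered 1069 with RPM, 98 with TMM, 97 with median-of-ratios factors, 668 with miRNA scaling and 607 with a minimum of 100 reads. Lower genes numbered 151, and from 141 to 165 under the same alternatives. By construction a scaling shifts all ratios alike, and a higher minimum tests fewer genes.

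In the same gene order, the ranks in the RNAi library were 11, 18, 15, 17 and 19 with structural RNA kept and 2, 3, 21, 57 and 36 per kilobase. Within the protein-coding class F23A7.4 stayed at 3, and the other ranks were 7, 5, 6 and 8. The share of reads held by the 5 genes was 1.17% of all antisense reads, 0.258% of counted reads and 4.51% without unc-119 and nrde-3 in the RNAi library. In the wild-type library it was 0.0286% of all antisense reads and 0.0127% of counted reads, and without those 2 genes it stayed within its interval. For the strongest transcript alone the antisense share on sqst-1 was 92.9% in the RNAi library and 65.3% in the wild-type library, and on got-1.2 it was 96.1% in the wild-type library; the other shares stayed within their intervals. Depth leaves sense values imprecise where reads were few, as with the 3 on T09F5.12 and 13 on got-1.2 in the wild-type library.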

Other observations

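On elt-1, a GATA factor gene with many sense reads in the RNAi library, antisense reads numbered 42 in the RNAi library and 2 in the wild-type library. None of the 5 leading genes had more sense than antisense reads in either library. For the RNAi library this is part of their choice by antisense count. elt-1 was named after its values were seen.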
